A study of Mus musculus with 12 samples.

Results

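The NRF2 core antioxidant genes are 10 genes chosen by name: Nfe2l2, which encodes the transcription factor NRF2, and 9 of its classical targets, Nqo1, Cbr3, Gclc, Gclm, Slc7a11, Srxn1, Txnrd1, Hmox1 and G6pdx. They were found by symbol among the 49398 gene rows of the liver count table, and all 10 had a row. A filter on low counts kept 13814 genes for testing, among them 9 of the 10, and Slc7a11 was left out by it. A further list of 66 other genes of the NRF2 pathway, of which 65 were tested, stands beside them. Both lists were made with earlier results of these data known.

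Messenger RNA was measured in the livers of 12 wild-type C57BL/6J mice. From 9 months of age the animals ate AIN-93G, a purified chow, for 8 weeks, and were then fasted for 5 hours and killed with tribromoethanol. In one group the chow held 5% (w/w) of VLCPUFA concentrate oil, a fish oil product rich in polyunsaturated fatty acids of very long chain (VLC5), another had 1% of it (VLC1), and the control group (CTRL) had none. Each diet is represented by 4 animals, 2 females and 2 males: 5% females N987 and N988, 5% males N975 and N976, 1% females N984 and N983, 1% males N972 and N971, control females N979 and N980, and control males N967 and N968. What the control chow held in place of the oil is not given in the sources used here, and the design text speaks of 6 samples per group, of which only these 12 libraries were analysed.

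NRF2 is held at a low level in unstressed cells because the adaptor KEAP1 delivers it to a ubiquitin ligase for destruction. Electrophiles and oxidants modify cysteines of KEAP1, NRF2 then accumulates, enters the nucleus, pairs with small MAF proteins and binds antioxidant response elements near its target genes. In liver these targets make glutathione, regenerate thioredoxin, reduce quinones and carbonyls, degrade heme and supply NADPH. Because NRF2 is controlled largely through its protein, the level of Nfe2l2 RNA is not by itself a measure of NRF2 activity.

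Library totals ran from 5291385 estimated reads (control N979) to 15674130 (5% N976). The share of reads on long noncoding genes ran from 0.646% to 1.91%, with the highest values in 1% N984 (1.91%), control N979 (1.63%) and 1% N983 (1.55%). Control N979 also had 24358 CPM of Lars2 (CPM are read counts scaled to library size with TMM factors), against at most 1511 CPM in the other 11 livers. Hepatocyte markers were high in all 12 livers, with a summed level of 106593 to 129393 CPM in 5% livers, 117265 to 132660 CPM in 1% livers and 120035 to 197441 CPM in controls. Some clock genes differed between the diets. Dbp, a clock output factor, had 12.7 to 40.0 CPM in 5% livers, 1.62 to 20.0 CPM in 1% livers and 0.157 to 1.10 CPM in controls (edgeR adjusted p = 0.00919 for 5% against control and 0.0719 for 1% against control). No hour of collection is given. In whole liver, fewer cells of a type and less RNA per cell cannot be told apart.

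The promoter windows of the genes that the results turn on are shown here because antioxidant response elements are the DNA letters through which NRF2 acts. They are RefSeq sequences of the build GRCm38.p6 and run over 300 bases, 250 before the start of transcription and 50 after it. The counts themselves rest on another build, GRCm39, and no other coordinates are given. Capitals mark TGACNNNGC, the core of the element, or TGAGTCAGC, the related NF-E2 site, searched on both strands; TGAGTCAGC was added to the search after the Srxn1 window had been seen. The Nqo1 window lies at chr8:107403156-107403455 on the minus strand, the Cbr3 window at chr16:93682969-93683268 on the plus strand, the Gclm window at chr3:122245307-122245606 on the plus strand, the Srxn1 window at chr2:152105274-152105573 on the plus strand, and one of 3 Txnrd1 windows at chr10:82858956-82859255 on the plus strand.
Nqo1: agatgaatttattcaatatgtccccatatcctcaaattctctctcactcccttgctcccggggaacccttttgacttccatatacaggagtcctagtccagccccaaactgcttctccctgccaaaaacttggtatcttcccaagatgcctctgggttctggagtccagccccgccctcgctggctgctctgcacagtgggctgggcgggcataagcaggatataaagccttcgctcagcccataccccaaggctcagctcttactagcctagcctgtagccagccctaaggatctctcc
Cbr3: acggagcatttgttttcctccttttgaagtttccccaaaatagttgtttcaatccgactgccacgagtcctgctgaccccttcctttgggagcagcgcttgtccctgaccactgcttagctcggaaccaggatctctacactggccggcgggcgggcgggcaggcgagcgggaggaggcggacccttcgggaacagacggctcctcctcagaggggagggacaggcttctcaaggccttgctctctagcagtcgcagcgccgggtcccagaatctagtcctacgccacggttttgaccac
Gclm: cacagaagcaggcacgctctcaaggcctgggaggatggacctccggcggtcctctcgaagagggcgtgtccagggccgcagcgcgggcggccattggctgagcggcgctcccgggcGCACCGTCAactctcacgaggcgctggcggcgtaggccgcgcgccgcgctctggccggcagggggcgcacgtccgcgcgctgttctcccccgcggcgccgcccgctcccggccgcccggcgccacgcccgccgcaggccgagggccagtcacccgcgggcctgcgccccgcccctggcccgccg
Srxn1: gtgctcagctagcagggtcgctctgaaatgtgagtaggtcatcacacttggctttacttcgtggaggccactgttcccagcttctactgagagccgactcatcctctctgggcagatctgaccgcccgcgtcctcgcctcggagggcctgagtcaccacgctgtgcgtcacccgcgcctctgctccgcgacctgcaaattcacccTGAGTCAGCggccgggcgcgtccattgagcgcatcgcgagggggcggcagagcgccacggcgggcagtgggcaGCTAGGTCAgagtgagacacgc
Txnrd1: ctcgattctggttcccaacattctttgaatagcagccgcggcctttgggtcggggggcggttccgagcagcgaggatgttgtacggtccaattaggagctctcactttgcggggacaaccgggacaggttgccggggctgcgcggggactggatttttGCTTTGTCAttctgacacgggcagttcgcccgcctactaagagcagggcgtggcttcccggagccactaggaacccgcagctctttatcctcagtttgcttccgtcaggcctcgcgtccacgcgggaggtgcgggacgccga

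The Srxn1 window holds TGAGTCAGC, first base at -45 from the start of transcription, and GCTAGGTCA at 29, which is the core read on the opposite strand. Gclm has GCACCGTCA at -134 and the Txnrd1 window shown has GCTTTGTCA at -92, both the core on the opposite strand. Windows were found for 8 of the 10 genes, all but Gclc and Hmox1, and 5 of the 8 held one of the motifs: Gclm, Srxn1 and Txnrd1 as shown, Nfe2l2 with TGACTCCGC at -240 and G6pdx with GCTCAGTCA at -57. The Nqo1, Cbr3 and Slc7a11 windows held neither string of letters in these 300 bases. Of all 32851 windows, 12.4% held TGACNNNGC and 0.414% held TGAGTCAGC, and 14.3% of the 27025 genes with a window held one of them. Among the 60 other pathway genes with a window, 15 held one. A match is a description of the letters, not a bound site.

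The 5% diet asks what the higher dose of the oil does to these genes. Nqo1 and Cbr3 rose against control livers, and the other 7 tested genes did not pass the threshold, an adjusted p of 0.05 from edgeR's quasi-likelihood test over all 13814 genes. Of those genes 1.19% were called higher and 1.27% lower in the same comparison, beside 2 and 0 of the 9 genes. Cbr3 passed the low-count filter through the 5% livers alone, where it is high. Counts of the 9 genes that include it carry that limit. Gclm and Srxn1 lay near the threshold. The sign of the change was positive for 7 of the 9 genes, all but Nfe2l2 and G6pdx, beside 51.5% of all genes. An unadjusted p below 0.05 was found for 5 of the 9, beside 2010 of all 13814 genes. Their median log2 fold change was 0.47, beside 0.01 over all genes tested.

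The 1% diet asks whether the lower dose does the same. edgeR called 0 of the 9 genes against control in either direction, with 0.224% of all genes called, and 2 of the 9 had an unadjusted p below 0.05, beside 1528 of 13814. DESeq2 and limma voom also called 0. The sign was negative for 8 of the 9 genes, all but Cbr3, beside 49.9% of all genes, and the median log2 fold change was -0.34, beside 0.00 over all genes. The 2 comparisons share the control livers, so their values are given side by side for each gene.

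The difference between the doses was tested directly, as 5% against 1%. Nqo1, Cbr3, Gclm, Srxn1 and Txnrd1 were higher at 5%, so 5 of 9 genes rose and 0 fell, where 0.861% of all genes were called higher and 0.471% lower. All 9 log2 fold changes were positive, beside 50.4% of all genes, with a median of 0.87. With each of the 12 libraries left out in turn, between 1 and 5 of the genes passed, Nqo1 each time. This comparison shares the 5% livers with the first and the 1% livers with the second. Cbr3 is among the 5 with the limit given above, that it passed the filter through the 5% livers alone.

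**Figure D1:**
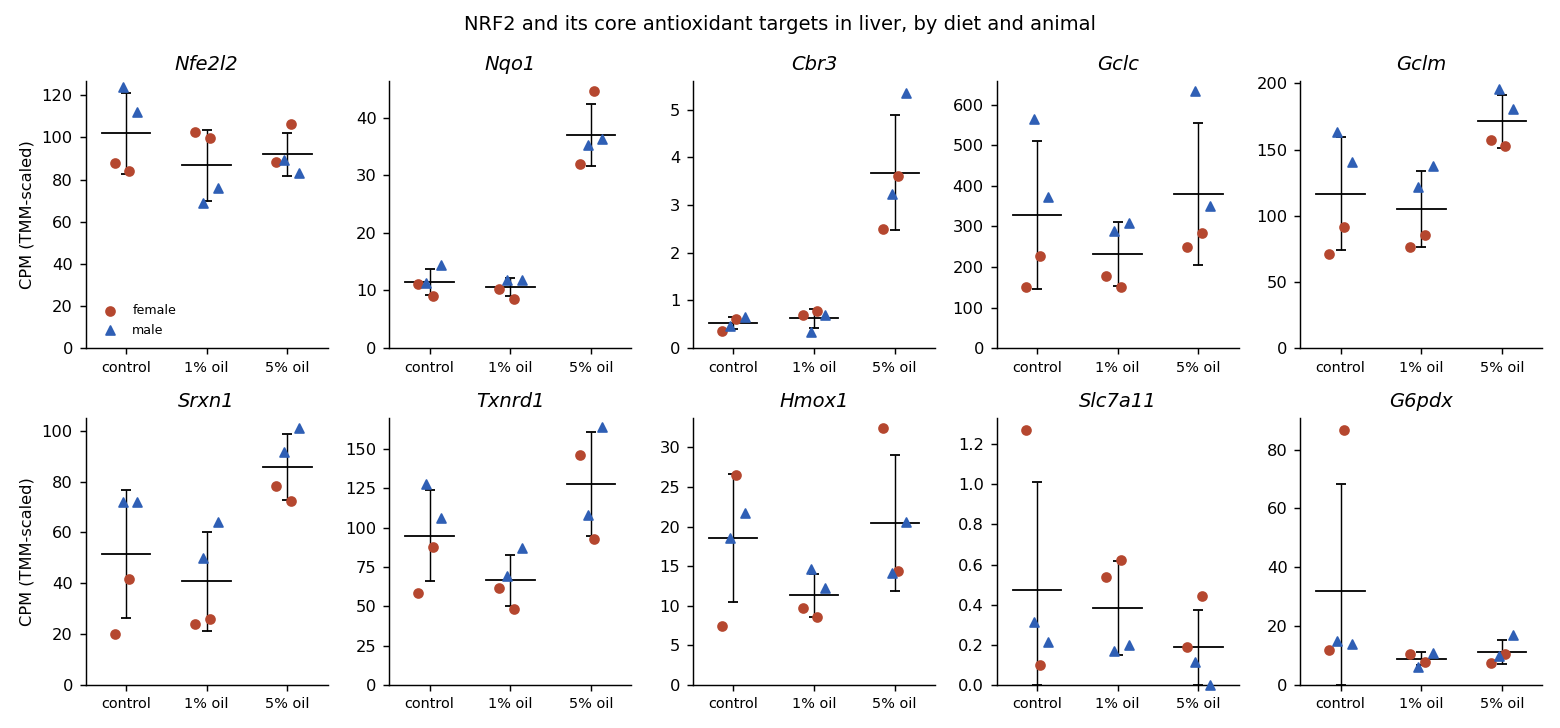
Level of each of the 10 genes in every liver, in CPM scaled by TMM factors, by diet. Points are single animals, circles females and triangles males, the horizontal line is the mean and the bar 1 SD, cut off at 0. All 4 livers of the 5% diet lie above every control and every 1% liver for Nqo1, Cbr3 and Srxn1, while 1 control female stands alone for G6pdx at 86.5 CPM.

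**Figure D2:**
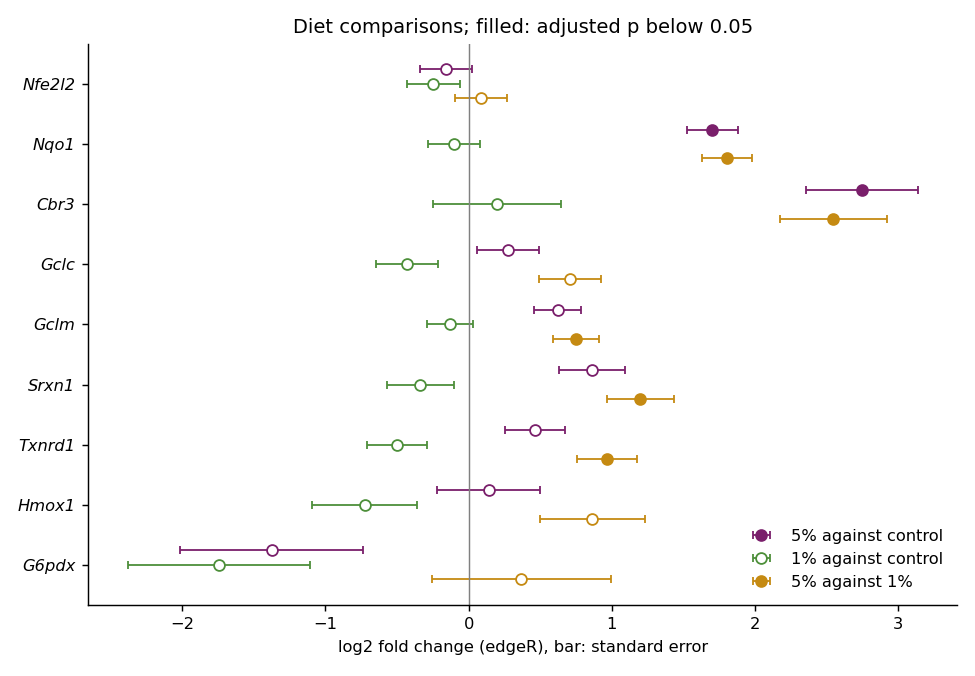
log2 fold changes of the 9 tested genes from edgeR in the 3 diet comparisons, with standard errors; filled points passed the adjusted p of 0.05. Nqo1 and Cbr3 are filled in 5% against control and 5% against 1%, Gclm, Srxn1 and Txnrd1 in 5% against 1%, and no point of 1% against control is filled.

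The factor itself came first in the order of roles. Nfe2l2 (ENSMUSG00000015839) had 88.5, 107, 89.5 and 83.3 CPM in 5% livers, 103, 99.5, 68.8 and 76.0 CPM in 1% livers, and 87.9, 84.0, 124 and 112 CPM in control livers, females before males in each diet. The diets overlapped. The log2 fold change was -0.16 ± 0.18 for 5% against control (edgeR adjusted p = 0.782), -0.25 ± 0.18 for 1% against control (adjusted p = 0.646) and 0.09 ± 0.18 for 5% against 1% (adjusted p = 0.832). The ± after a log2 fold change is its standard error throughout, and the ± after a mean CPM is the SD over the livers.

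Nqo1 (ENSMUSG00000003849) encodes NAD(P)H quinone dehydrogenase 1, which reduces quinones to hydroquinones and is a standard readout of NRF2. It had 31.9, 44.5, 35.2 and 36.3 CPM in 5% livers, 10.2, 8.59, 11.9 and 11.8 CPM in 1% livers, and 11.1, 9.00, 11.3 and 14.5 CPM in controls. Every 5% liver lay above every other liver, in both sexes, and the 1% and control livers overlapped. The mean was 37.0 ± 5.38 CPM at 5%, 10.6 ± 1.56 CPM at 1% and 11.5 ± 2.27 CPM in controls (SD, n = 4 each). Against control Nqo1 rose by 1.70 ± 0.18 on the log2 scale at 5% (edgeR adjusted p = 0.000293), while the 1% value was -0.10 ± 0.18 (adjusted p = 0.867). At 5% it was 1.81 ± 0.18 above 1% (adjusted p = 0.000735). Its single annotated transcript, Nqo1-201, carried all of its reads. Of the 10 genes, the authors' deposited table of 261 genes lists Nqo1, at a log2 fold change of 0.94 and an adjusted p of 0.0357, for a comparison that it does not name.

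Cbr3 (ENSMUSG00000022947) encodes a carbonyl reductase, which reduces carbonyl groups with NADPH. It had 2.50, 3.61, 3.24 and 5.35 CPM in 5% livers, 0.693, 0.781, 0.341 and 0.690 CPM in 1% livers, and 0.363, 0.600, 0.470 and 0.644 CPM in controls. Again each 5% liver exceeded all 8 others. The level was low, with 204.1 estimated reads over the 5% livers, 25 over the 1% livers and 17 over the controls, so counting error adds to the spread. No 1% or control liver reached the level that the low-count filter asks for. Cbr3 was therefore tested only because it is high in the 5% livers. The log2 fold change was 2.75 ± 0.39 for 5% against control (edgeR adjusted p = 0.00317), 0.20 ± 0.45 for 1% against control (adjusted p = 0.931) and 2.55 ± 0.37 for 5% against 1% (adjusted p = 0.0107). Without 5% N976, the highest liver, the last of these no longer passed (adjusted p = 0.0545).

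Glutathione synthesis starts with glutamate cysteine ligase, made of the catalytic subunit Gclc and the modifier subunit Gclm. Gclm (ENSMUSG00000028124) had 157, 153, 196 and 181 CPM in 5% livers, 76.3, 85.4, 122 and 137 CPM in 1% livers, and 71.1, 91.3, 163 and 141 CPM in controls. At 5% all livers lay above all 1% livers, but they overlapped the control males. Fold changes on the log2 scale were 0.62 ± 0.16 for 5% against control (edgeR adjusted p = 0.0593), -0.13 ± 0.16 for 1% against control (adjusted p = 0.806) and 0.75 ± 0.16 for 5% against 1% (adjusted p = 0.0424). This last call was lost without any 1 of 10 livers (N984, N983, N972, N971, N980, N968, N967, N988, N987 or N976), at adjusted p of 0.0501 to 0.158. Gclm was spread over several transcripts, with Gclm-201 at 39.1% of its reads in 5% livers, 36.5% in 1% livers and 40.4% in controls. Over single livers this share ran from 25.5% to 48.2% at 5%, 31.8% to 39.1% at 1% and 31.3% to 44.9% in controls.

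Gclc (ENSMUSG00000032350) had 248, 285, 634 and 351 CPM in 5% livers, 177, 152, 288 and 309 CPM in 1% livers, and 151, 228, 566 and 372 CPM in controls. Males exceeded females in each diet and the diets overlapped. Its log2 fold change was 0.28 ± 0.22 for 5% against control (edgeR adjusted p = 0.633), -0.43 ± 0.22 for 1% against control (adjusted p = 0.480) and 0.71 ± 0.22 for 5% against 1% (adjusted p = 0.118). Slc7a11 (ENSMUSG00000027737) encodes the cystine importer that feeds glutathione synthesis, and it was barely detected, with 10 estimated reads over the 5% livers, 15.6 over the 1% livers and 11.6 over the controls. The filter left it out of the tests reported here; it entered those with no filter and those without 1 library (except N979), and was not called in the diet comparisons there. In 5% N976 it had 0 reads, which allows up to 3 reads, or 0.184 CPM, for counting error only.

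Srxn1 (ENSMUSG00000032802) encodes sulfiredoxin, which restores overoxidised peroxiredoxins. It had 78.2, 72.4, 91.7 and 101 CPM in 5% livers, 23.8, 25.8, 49.8 and 64.0 CPM in 1% livers, and 20.1, 41.8, 72.1 and 72.0 CPM in controls. The lowest 5% liver, N988 at 72.4 CPM, lay just above the control males. On the log2 scale the change was 0.86 ± 0.23 for 5% against control (edgeR adjusted p = 0.0687), -0.34 ± 0.23 for 1% against control (adjusted p = 0.618) and 1.20 ± 0.23 for 5% against 1% (adjusted p = 0.0338). The last call was lost without any 1 of 8 livers (N984, N983, N972, N971, N968, N988, N987 or N976), at adjusted p of 0.0522 to 0.128.

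Txnrd1 (ENSMUSG00000020250) encodes cytosolic thioredoxin reductase, which keeps thioredoxin reduced. It had 147, 93.0, 108 and 164 CPM in 5% livers, 61.6, 48.4, 69.0 and 87.1 CPM in 1% livers, and 58.7, 87.9, 128 and 106 CPM in controls. The 5% livers lay above the 1% livers and overlapped the controls. Its log2 fold change was 0.47 ± 0.21 for 5% against control (edgeR adjusted p = 0.324), -0.50 ± 0.21 for 1% against control (adjusted p = 0.406, unadjusted p = 0.0314) and 0.97 ± 0.21 for 5% against 1% (adjusted p = 0.0424). That call was lost without any 1 of 9 livers (N984, N983, N972, N971, N968, N967, N988, N987 or N976), at adjusted p of 0.0527 to 0.175. Txnrd1-201 carried 88.4% of the reads in 5% livers, 94.8% in 1% livers and 88.0% in controls. Over single livers its share ran from 84.8% to 95.8% at 5%, 92.68% to 100% at 1% and 82.7% to 92.66% in controls. Differences in these shares were not tested.

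Hmox1 (ENSMUSG00000005413) encodes heme oxygenase 1, which degrades heme and is expressed in macrophages as well as in hepatocytes under stress. It had 32.5, 14.4, 14.1 and 20.5 CPM in 5% livers, 9.70, 8.59, 14.7 and 12.2 CPM in 1% livers, and 7.43, 26.5, 18.5 and 21.7 CPM in controls. The groups overlapped, with the highest liver at 5% and the lowest in the controls. The log2 fold change was 0.14 ± 0.36 for 5% against control (edgeR adjusted p = 0.923), -0.73 ± 0.37 for 1% against control (adjusted p = 0.482) and 0.87 ± 0.36 for 5% against 1% (adjusted p = 0.241). Kupffer cell and macrophage markers summed to 157 to 423 CPM in 5% livers, 169 to 412 CPM in 1% livers and 324 to 661 CPM in controls. None of these 11 markers was at 0. For 1% against control their median log2 fold change was -0.70, with 0 of 11 past the threshold in edgeR and 1 in DESeq2, and 10 of 11 at an unadjusted p below 0.05 in edgeR, beside 1528 of 13814 genes. For 5% against control the median was -0.48, with 0 of 11 past the threshold and 0 at an unadjusted p below 0.05 in edgeR, and 0 past it in DESeq2. Their part in the Hmox1 values was not tested.

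G6pdx (ENSMUSG00000031400) encodes glucose-6-phosphate dehydrogenase, which opens the pentose phosphate pathway and supplies NADPH. It had 7.25, 10.4, 9.72 and 17.0 CPM in 5% livers, 10.5, 7.81, 6.15 and 10.9 CPM in 1% livers, and 11.8, 86.5, 15.0 and 13.7 CPM in controls. Control female N980 stood alone at 86.5 CPM. With it, the log2 fold change was -1.38 ± 0.64 for 5% against control (edgeR adjusted p = 0.361) and -1.75 ± 0.64 for 1% against control (adjusted p = 0.354). Without N980 these values were -0.24 ± 0.27 (adjusted p = 0.767) and -0.53 ± 0.28 (adjusted p = 0.809). For 5% against 1% it was 0.37 ± 0.62 (adjusted p = 0.794). The same liver had 124 CPM of Pgd, the next NADPH-yielding enzyme of that pathway, against 32.5 to 113 CPM in the other controls, and 2480 CPM of the fatty acid synthase Fasn, against 587 to 1950 CPM. Among other enzymes of the pentose phosphate pathway, Taldo1 had 74.0 CPM in it, against 77.4 to 116 CPM in the other controls, and Tkt 161 CPM, against 116 to 190 CPM.

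Compared per length of transcript, the order of the 10 genes was led by the glutathione ligase subunits. On a TPM-like scale (estimated reads over transcript length, brought to the same total in each liver), the mean levels in 5% livers were 197 for Gclm, 167 for Gclc, 59.0 for Txnrd1, 58.9 for Nfe2l2, 47.1 for Srxn1, 36.3 for Nqo1, 20.3 for Hmox1, 6.50 for G6pdx, 4.81 for Cbr3 and 0.0748 for Slc7a11. Over the 4 livers at 5%, each gene overlapped the next in this order, except that Gclc lay above Txnrd1, Hmox1 above G6pdx and Cbr3 above Slc7a11 without overlap. In controls on the same scale Nqo1 had a mean of 9.76, below Hmox1 at 16.0, Srxn1 at 24.9 and Txnrd1 at 38.4. There the range of Nqo1 overlapped those of Hmox1 and Srxn1 but not that of Txnrd1.

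The 66 other pathway genes were read from the same fit. Their list was made with earlier results of these data known. The shares over all genes beside its counts are therefore no test of the list. For 5% against control, 16 of the 65 tested rose and 1 fell, beside 1.19% of all genes called higher and 1.27% lower. Their median log2 fold change was 0.25, beside 0.01 over all genes, and 27 had an unadjusted p below 0.05, beside 2010 of 13814. For 1% against control edgeR called 0 of 65, with 6 at an unadjusted p below 0.05, beside 1528 of 13814, and 0 called by DESeq2 or limma voom. For 5% against 1%, 11 rose and 0 fell, beside 0.861% of all genes called higher and 0.471% lower. With each of the 12 livers left out in turn, 6 of the 17 calls of 5% against control stayed past the threshold throughout, for Gstm1, Gstm3, Gstm4, Cbr1, Ugt2b35 and Abcc4, and 3 of the 11 of 5% against 1%, for Gstm1, Ugt2b35 and Abcc4.

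**Figure D3:**
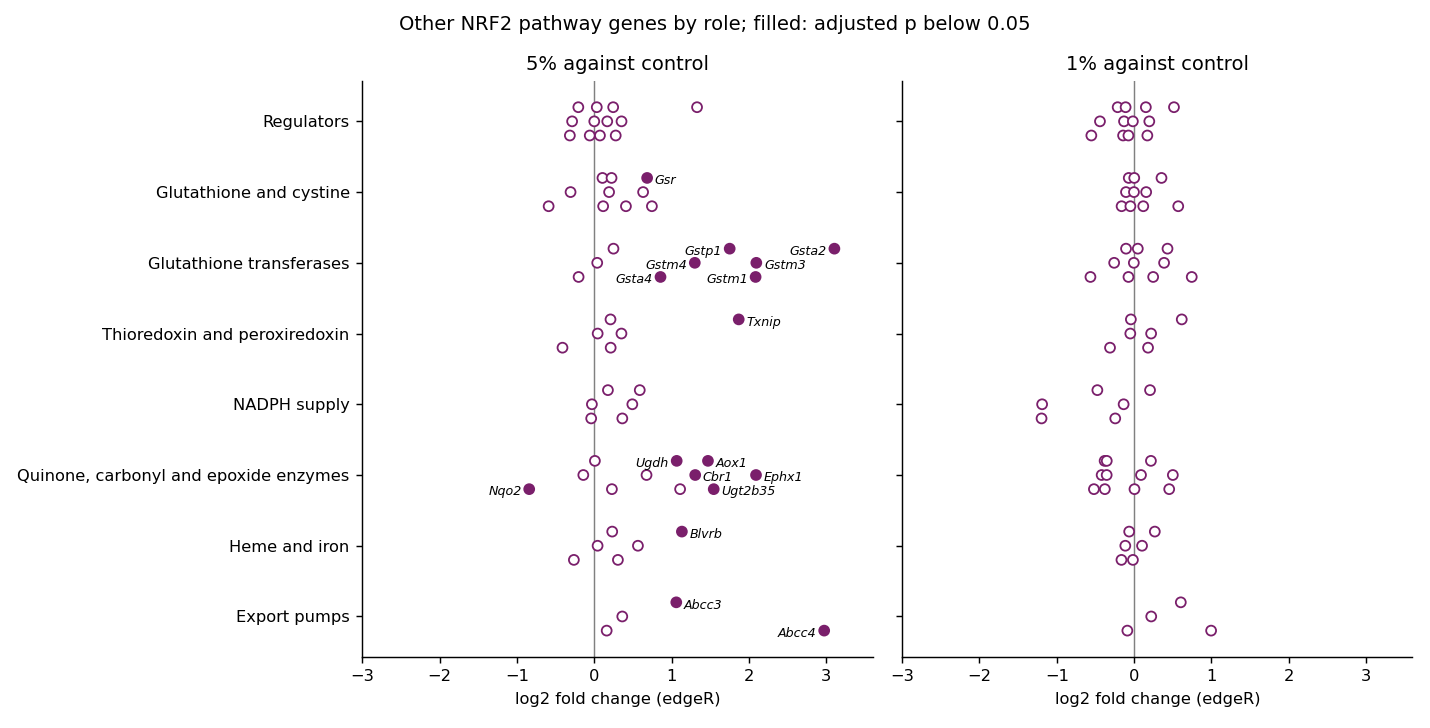
log2 fold changes from edgeR of the 65 tested other NRF2 pathway genes, by role, for 5% against control on the left and 1% against control on the right. Filled points passed the adjusted p of 0.05: 17 on the left, 16 of them above 0, and none on the right.

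Glutathione transferases, which join glutathione to electrophiles, held 6 of those 16 higher calls among 10 tested, with a median log2 fold change of 1.53. Gstm1 had 8593 ± 1907 CPM at 5%, 2055 ± 605 CPM at 1% and 2058 ± 374 CPM in controls (SD, n = 4 each), a rise of 2.09 ± 0.23 on the log2 scale against control (edgeR adjusted p = 0.000388). Against control Gstm3 rose by 2.10 ± 0.34 (adjusted p = 0.00780), Gstm4 by 1.30 ± 0.22 (adjusted p = 0.00773) and Gsta2 by 3.11 ± 0.54 (adjusted p = 0.0140). Gsta2 no longer passed without control N980 or N979, at adjusted p of 0.0652 and 0.0745. The transferases have near-identical copies, so the values of single genes are uncertain. For 1% against control edgeR called 0 of 10, with 1 at an unadjusted p below 0.05, and DESeq2 also called 0.

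Quinone, carbonyl and epoxide enzymes held 5 higher calls and 1 lower among 11 tested. Cbr1, the carbonyl reductase beside Cbr3 in function, had 159 ± 35.8 CPM at 5%, 73.9 ± 10.4 CPM at 1% and 64.5 ± 21.5 CPM in controls, and rose by 1.31 ± 0.19 against control (edgeR adjusted p = 0.00342). The glucuronosyltransferase Ugt2b35 rose by 1.54 ± 0.26 (adjusted p = 0.00825), the epoxide hydrolase Ephx1 by 2.09 ± 0.38 (adjusted p = 0.0127) and the aldehyde oxidase Aox1 by 1.47 ± 0.29 (adjusted p = 0.0164). Ephx1 no longer passed without control N980 (adjusted p = 0.0701), nor did Aox1 without control N979 (adjusted p = 0.0516). The remaining higher call against control was Ugdh, at 1.07 ± 0.22 (edgeR adjusted p = 0.0219). It was lost without N968, N988, N987 or N976, at adjusted p of 0.0520 to 0.0769. Nqo2, a quinone reductase related to Nqo1 and named here after its values were seen, fell by 0.84 ± 0.18 (adjusted p = 0.0219), with 99.6 ± 23.8 CPM at 5% and 175 ± 32.9 CPM in controls, and the call was lost without N980, N968, N988, N987 or N976, at adjusted p of 0.0597 to 0.0870. Ugdh and Ugt1a6a, which serve glucuronidation, were higher at 5% than at 1% by 1.42 ± 0.22 and 1.06 ± 0.18 (adjusted p of 0.0141 and 0.0238), calls that were lost without N984, N983 or N971 and, for Ugt1a6a, also without N987 or N976, at adjusted p of 0.0520 to 0.101.

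Both called export pumps, of 4 tested, belong to the family that exports conjugates. Abcc4 had 18.0 ± 6.25 CPM at 5%, 3.56 ± 1.57 CPM at 1% and 2.19 ± 1.23 CPM in controls, a rise of 2.97 ± 0.27 against control (edgeR adjusted p = 8.8e-05). Abcc3 rose by 1.06 ± 0.22 (adjusted p = 0.0213), a call lost without N980, N968, N987 or N976 at adjusted p of 0.0520 to 0.0726. In the remaining roles, Gsr, the glutathione reductase, rose by 0.68 ± 0.14 (adjusted p = 0.0216), Txnip, which binds thioredoxin, by 1.87 ± 0.34 (adjusted p = 0.0127) and the biliverdin reductase Blvrb by 1.13 ± 0.27 (adjusted p = 0.0435). Leaving out N968, N987 or N976 ended the call for Gsr (adjusted p of 0.0732 to 0.113), leaving out N968 ended that for Txnip (0.0566) and leaving out any of 9 livers, all but N972, N971 and N975, ended that for Blvrb (0.0512 to 0.144). Of 6 genes of NADPH supply, edgeR and DESeq2 called 0 against control at 5%, with 1 at an unadjusted p below 0.05. Tkt, a transketolase, was 1.06 ± 0.23 higher at 5% than at 1% (adjusted p = 0.0410), a call lost without any of 8 livers (all but N972, N980, N979 and N975) at adjusted p of 0.0527 to 0.168.

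Of the regulators, 0 of 12 were called by edgeR in the 3 diet comparisons, with 2, 2 and 4 at an unadjusted p below 0.05 in 5% against control, 1% against control and 5% against 1%, beside 2010, 1528 and 2453 of 13814 genes. DESeq2 called 1, 0 and 0 in these comparisons. For 5% against control 7 of the 12 were positive and 5 negative, with a median log2 fold change of 0.05. Keap1 had 42.5 ± 5.92 CPM at 5% and 35.9 ± 0.707 CPM in controls, a log2 fold change of 0.24 ± 0.15 (adjusted p = 0.502). Bach1, a repressor that competes at the same elements, was at 0.35 ± 0.16 (adjusted p = 0.324). Sqstm1, which binds KEAP1, was at 0.28 ± 0.16 (adjusted p = 0.469). The small MAF gene Maff, partner of NRF2, was at 1.33 ± 0.35 (adjusted p = 0.0626), with an unadjusted p of 0.00199, while its relative Mafg was at -0.32 ± 0.27 (adjusted p = 0.678). Nfe2l1, a factor related to NRF2, was at -0.29 ± 0.18 (adjusted p = 0.511).

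The sexes differed in the level of part of the set. For female against male, the log2 fold change was -1.02 ± 0.18 for Gclc (edgeR adjusted p = 0.00356), -0.62 ± 0.13 for Gclm (adjusted p = 0.0118) and -0.92 ± 0.19 for Srxn1 (adjusted p = 0.0110), so these were lower in females. They are 3 of 9 genes, where 8.94% of all genes were called in either direction. Gclc averaged 207 ± 55.4 CPM in females and 420 ± 144 CPM in males (SD, n = 6 each). Txnrd1 was at -0.45 ± 0.17 (adjusted p = 0.106), and Nqo1 and Cbr3 were at -0.19 ± 0.14 and -0.15 ± 0.32 (adjusted p of 0.403 and 0.778).

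The response to 5% was then compared between the sexes, each with 2 livers per diet. Nqo1 at 5% over control was 3.81-fold in females and 2.77-fold in males, and Cbr3 6.34-fold in females and 7.71-fold in males. Srxn1 was 2.43-fold in females and 1.34-fold in males, and Gclm 1.91-fold in females and 1.24-fold in males. The test of the difference itself called 0 of 9 genes, with 0% of all genes called, and limma voom also called 0. Unadjusted p values below 0.05 were found for 2 of the 9, Nfe2l2 (0.0412) and G6pdx (0.0387), beside 645 of 13814 genes, and those of Gclm and Srxn1 were 0.0556 and 0.0618. Nfe2l2 at 5% over control was 1.13-fold in females and 0.731-fold in males, and G6pdx 0.179-fold in females and 0.929-fold in males. The female G6pdx ratio has control N980 in its denominator, at 86.5 CPM against 11.8 CPM in control female N979.

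**Figure D4:**
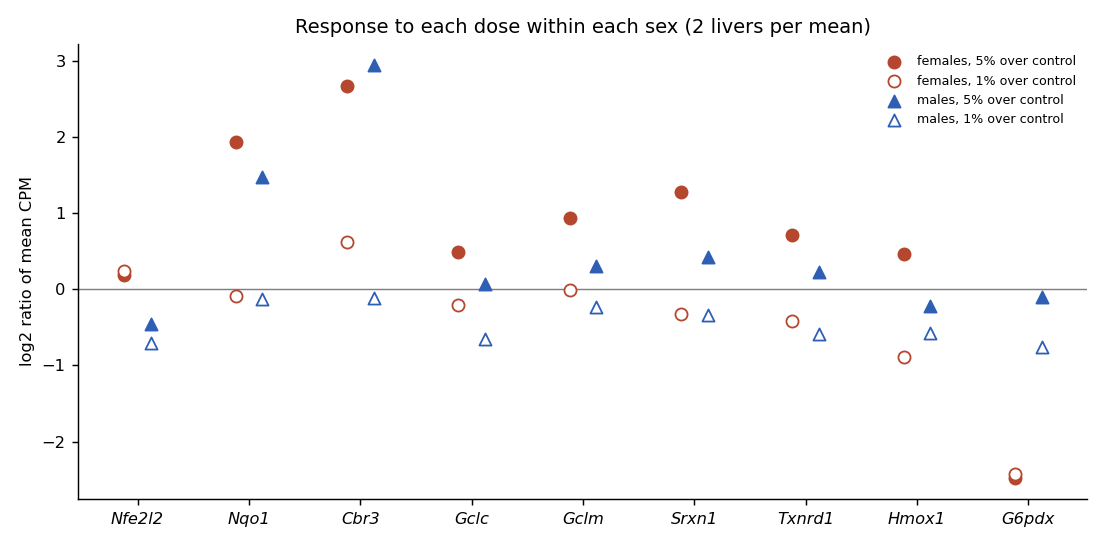
log2 ratio of mean CPM at each dose over control within each sex, for the 9 tested genes, 2 livers per mean. Filled marks are 5% and open marks 1%, circles females and triangles males. Nqo1 and Cbr3 lie well above 0 at 5% in both sexes, and the female G6pdx ratios, whose denominator includes control female N980, lie lowest.

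By overlap alone, the 4 livers at 5% lay above all 4 controls for 3 of the 9 genes (Nqo1, Cbr3 and Srxn1), beside 3.11% of all genes tested. They lay above all 4 livers at 1% for 5 of the 9 (those 3, Gclm and Txnrd1), beside 4.1% of all genes. Cbr3 is in both counts, and it passed the filter through the 5% livers alone.

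The genes with the pattern most like that of Nqo1 were sought over the 12 livers, by the root mean square difference of centred log2 CPM among 11174 genes. They were Gstm1 (0.261), Htatip2 (0.292), Pir (0.370), Dnajc12 (0.398) and Gstm3 (0.406). Pir, which encodes pirin, had 35.4 ± 3.46 CPM at 5%, 17.1 ± 4.73 CPM at 1% and 14.7 ± 1.87 CPM in controls, and Htatip2 had 70.2 ± 6.32 CPM at 5%, 30.5 ± 5.13 CPM at 1% and 27.6 ± 4.39 CPM in controls (SD, n = 4 each). Nearest to Nfe2l2 were Mark3 (0.133), Chfr (0.153), Mta2 (0.154), Tecpr2 (0.162) and Ppfia1 (0.164).

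Some clock genes moved with the diets, and their values stand here beside the results. For 5% against control Dbp, Tef, Per3, Nr1d2 and Bhlhe41 passed as higher (edgeR adjusted p of 0.000872 to 0.00919). Arntl, Npas2, Cry1 and Nfil3 passed as lower (adjusted p of 0.00282 to 0.0413). In the same comparison Per1, Per2, Nr1d1, Ciart and Clock did not pass (adjusted p of 0.316 to 0.991). For 1% against control Tef alone passed (adjusted p = 0.0292), and Per2 lay at -0.65 ± 0.37 (adjusted p = 0.540). A score of clock genes, the mean centred log2 CPM of 9 genes of one phase minus that of 5 of the opposite phase, lay from 0.743 to 2.59 in 5% livers, from -0.883 to 1.23 in 1% livers and from -2.63 to -1.61 in controls. The 1% livers N984 and N972 scored 1.23 and 0.797, above the 5% liver N975 at 0.743. What part the clock has in the Nqo1 values was not tested. In a fit that also held the score, edgeR called 0 of 13814 genes for 5% against control and 0 for 5% against 1%. With the score added to the fit, the log2 fold change of Nqo1 was 1.33 ± 0.48 for 5% against control (edgeR adjusted p = 0.858) and 1.65 ± 0.26 for 5% against 1% (adjusted p = 0.0931), and Cbr3 was at 2.55 ± 1.11 (adjusted p = 0.862) and 2.47 ± 0.58 (adjusted p = 0.307). No control score overlaps that of any other diet, so diet and score cannot be told apart against control.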

How the data were processed

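Liver RNA of 12 mice was sequenced from a stranded poly(A) kit, per the labels' protocols. The authors deposited estimated counts per gene and per transcript; the submitters' processing notes list kallisto, edgeR, limma and the build GRCm39, and give neither version nor role, and whether counting used strand is not stated. Of the gene values, 11.7% are not whole. The authors also deposited a CPM table of 11339 genes, used in one alternative as log2(CPM + 0.5), and a table of 261 genes with log2 fold changes, p-values and adjusted p-values, per the file headers. CPM-like values by library in that last table were used in no test.

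Symbols were matched for 48845 gene IDs and not for 553, and 138096 transcripts (99.2% of reads) matched by ID. After rounding, the estimated counts went through edgeR 4.0.16 (R 4.3.3), with low genes removed by filterByExpr using 6 diet-by-sex groups, TMM factors, and a robust quasi-likelihood fit of diet and sex over all 12 libraries (common biological coefficient of variation 0.266), 2-sided, with Benjamini-Hochberg adjustment over 13814 genes. A fit of the 6 groups gave the sex difference in response. A standard error is the absolute log2 fold change divided by the root of F. Alternatives used limma 3.58.1 and DESeq2 1.42.0. The edgeR procedure was also run on simulated counts without a sex difference, and its outcome is not reported here. Levels per length divide transcript counts by transcript length. Each animal is 1 replicate.

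The 10 genes, the lists and the alternatives were chosen with earlier results of these data known. Named were all 10 genes, called pathway genes up to the 4 of smallest p per role, and the 5 genes nearest to Nqo1 and to Nfe2l2 whose average log2 CPM was 1 or more. Uncalled pathway genes and the genes set beside a result (Keap1, Bach1, Sqstm1, Maff, Mafg, Nfe2l1, Pgd, Taldo1, Tkt, Fasn, Lars2, Dbp, Tef, Per1, Per2, Nr1d1, Ciart and Clock) fall outside that rule and were chosen after their values were seen. The same holds for the clock genes Per3, Nr1d2, Bhlhe41, Arntl, Npas2, Cry1 and Nfil3.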

Additional observations from a re-analysis of the deposited data

Results flagged for a closer look

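G6pdx in the control livers was the 1 result where a single sample stood far from the rest of its group. Control female N980 had 86.5 CPM, and the other 3 controls lay between 11.8 and 15.0 CPM, so the gap took 0.956 of the range of the group, above Dixon's 95% critical value for 4 samples. Over the 10 genes and 3 diets, 30 groups were checked in this way, and chance flags about 1 in 20 groups.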

How the results depend on the processing

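No paired analysis was possible because replicate names are animal numbers that no 2 groups share. Under 25 alternatives the called counts moved by over 1.5 times as follows, and the cause was not tested. For 5% against control the 2 called members became 4 with no filter, DESeq2, limma trend on deposited CPM and the noncoding share as a covariate. The added calls were Gclm and Srxn1 in the last 3, and Srxn1 and G6pdx with no filter. G6pdx was called lower there, the gene for which control N980 stood alone. With the clock score the called members became 0, where 2 had an unadjusted p below 0.05, and with a library left out they numbered 2 to 3. The stricter filter also gave 2, but Cbr3 was not tested there and Gclm took its place (adjusted p = 0.0432), and for 5% against 1% it gave 4, again with Cbr3 untested. The 17 pathway calls became 4 with no sex term, 9 with only the compared diets, 0 with the clock score (7 unadjusted) and 11 to 19 with a library left out. The 340 calls over all genes became 1010 (no filter), 749 (DESeq2), 107 (no sex term), 573 (noncoding share), 201 (only the compared diets), 0 (clock score, 784 unadjusted) and 138 to 479 with a library left out. For 1% against control, no filter called 1 member (G6pdx, lower) and 4 pathway genes where the count was 0. A library left out gave 0 to 1 pathway genes (1 without N979). The 31 calls over all genes became 649 (no filter), 50 (stricter filter), 277 (DESeq2), 54 (limma trend), 10 (no sex term), 1 (clock score), 53 (only the compared diets) and 13 to 183. For 5% against 1% the 5 called members became 3 with upper-quartile factors, 2 with no sex term, 2 with the noncoding share, 0 with the clock score (6 unadjusted) and 1 to 5 with a library left out. The 11 pathway calls became 25 (no filter), 22 (DESeq2), 18 (limma trend), 1 (no sex term), 7 (noncoding share), 0 (clock score, 17 unadjusted) and 3 to 17, and the 184 over all genes 1274, 707, 281, 8, 37, 0 (1575 unadjusted) and 13 to 598 in the same order, with 306 from only the compared diets. Signs turned for uncalled genes alone: Nfe2l2 at 5% against control (0.021 with limma trend, 0.0079 with the clock score), Hmox1 there (-0.25 to 0.50 with a library left out, below 0 without N979 or N987), Nqo1 at 1% against control (-0.18 to 0.024, above 0 without N968), Gclc there (0.032 with the clock score), Nfe2l2 at 5% against 1% (-0.0084 to 0.18, below 0 without N971) and G6pdx there (-0.25 with the noncoding share, -0.072 to 0.65 with a library left out, below 0 without N976). limma trend on the deposited CPM moved the median of all genes by 0.17 for 5% against control and 0.10 for 5% against 1%. Depth limits Cbr3 and Slc7a11 most, and 4 animals per diet limit every comparison.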
